A study of Mus musculus with 16 samples.

Results

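Col4a1 and Col4a2 encode the chains of the most widespread form of type IV collagen, and they were followed here through the activation of a T helper cell line with and without inhibition of Akt. The pair was taken as the entries with these symbols, 2 of the 18138 genes on the array, each with 1 entry. The pair was chosen by a measured value, the rise of Col4a1 that depended on the inhibitor, which ranked first at 6 and 12 h in background-corrected values, so the values of Col4a1 at 0, 6 and 12 h are given as a description without a test. Col4a2 came with it as the gene that lies beside it and shares its promoter.

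The cells were D10, a fast-growing variant of a mouse Th2 clone, and all arrays came from this 1 line. They were stimulated through CD3 and CD28 with biotinylated antibodies crosslinked by streptavidin for 0, 2, 6 or 12 h, where 0 h is unstimulated. At each time 1 group received no inhibitor (control) and 1 group was pre-incubated for 1 h with Akti1/2, an allosteric inhibitor of Akt1 and Akt2, at 10 µM. This gave 8 groups of 2 arrays on 2 chips, each chip carrying 1 array of every group. No unstimulated group was kept with Akti1/2 for 2, 6 or 12 h. In the Akti1/2 arm, stimulation time and time with the inhibitor therefore cannot be told apart. The study's methods leave the control cells untreated, while its results name a solvent. No source used here states whether the 2 arrays of a group came from separate cultures, so the tests measure only the spread between these arrays.

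Type IV collagen is the network-forming collagen of basement membranes, the thin sheets under epithelium and endothelium and around muscle and fat cells. The products of Col4a1 and Col4a2 wind together into a single triple-helical molecule, which is modified and folded in the endoplasmic reticulum before it is secreted and crosslinked outside the cell. The genes are transcribed in opposite directions from a promoter that they share. Akt is a kinase that acts downstream of PI3K in the signals given by the T cell receptor and CD28.

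The deposited annotation places both genes on chromosome 8 at 8qA1.1, Col4a1 on the minus strand and Col4a2 on the plus strand. In RefSeq (GRCm38.p6) the annotated transcripts ran in opposite directions and shared their first 22 bases. The promoter windows held 250 bases before and 50 bases from each annotated start, and these 300-base windows shared 78 bases. The sequence over both starts is shown first because it belongs to both genes. The other 2 lines show the nearest CCAAT box before each start, read on the strand of that gene. Each lies on the transcribed side of the other gene's annotated start. Capitals mark a GC box (GGGCGG) or a CCAAT box (CCAAT, or ATTGG on the other strand).
Over both starts, chr8:11312805-11312826 (+): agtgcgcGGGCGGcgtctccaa
Before the Col4a2 start, chr8:11312761-11312789 (+): ccgaggagctccCCAATttgttggcgctg
Before the Col4a1 start, chr8:11312955-11312983 (-): tgcttgcccgggATTGGcgagccaagggg

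The Col4a2 segment begins 44 bases before its start and the Col4a1 segment 157 bases before its start. Counted on both strands, the window of Col4a1 held 1 GC box and that of Col4a2 held 3, and 35.7% of the 32851 RefSeq windows held at least 1. Each window held 1 CCAAT box, which 37.4% of all windows had. Neither held the TATA box letters TATAAA (13.6% of windows), the FOXO motif TGTTTAC (3.6%) or TGATGCAA, the form searched here of the element bound by ATF4 and C/EBP factors (0.9%). The windows were 74.0% and 73.7% G or C for Col4a1 and Col4a2, against a median of 52.7%. Such matches describe the letters and were not tied to binding.

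Across the 16 arrays, 6288 to 6907 genes were above background, and the log2 values of replicate arrays correlated at 0.986 to 0.994 over the 7395 genes tested. A gene counted as above background when its detection p, the share of the 798 negative controls that matched or exceeded its intensity, was under 0.01. All 7 T cell markers were above background (Cd3d, Cd3e, Cd3g, Cd4, Cd28, Lck and Zap70), 6 of them on all arrays, as were all 5 Th2 markers (Gata3, Il4, Il5, Il13 and Il1rl1). Of the cells that commonly make type IV collagen, none of the 8 fibroblast markers was above background on any array, and their summed intensity was 0.980 to 1.02 times the negative controls in all groups. Of 7 endothelial markers only Pecam1, which T cells also carry, was above background, on 7 arrays, while Cdh5, Kdr, Tek, Tie1, Vwf and Esam did not. Pecam1 differed between Akti1/2 and control cells by 0.22, -0.41 and 0.57 on the log2 scale at 2, 6 and 12 h (limma adjusted p = 0.400, 0.108 and 0.0240), and its part in the Col4a1 values was not tested. The summed endothelial markers were at 0.988 to 1.09 times the negative controls in stimulated cells with Akti1/2 and at 0.998 to 1.10 in stimulated control cells. Among 3 epithelial markers only Krt8 passed on some arrays, with sums of 1.08 to 1.18 with Akti1/2 and 1.08 to 1.16 in controls, and among 6 B cell and antigen-presenting cell markers only Ms4a1 did, on 1 array.

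Col4a1 was at background before stimulation and was measured far above it in stimulated cells that had received Akti1/2. Unstimulated control cells gave bead intensities of 160.2 and 142.7, unstimulated cells with Akti1/2 gave 150.0 and 140.6, and none of these arrays was above background. After 2 h of stimulation the control arrays read 171.1 and 175.0, just above background, with 5 and 7 of the 798 negative controls at or above them. With Akti1/2 the 2 h arrays read 345.0 and 290.7, and no negative control reached either value. At 2 h, therefore, both groups were above background and did not overlap.

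The separation was wider at the later times. At 6 h the control arrays read 145.8 and 133.8, below the background threshold, while the Akti1/2 arrays read 557.1 and 668.5. At 12 h the controls read 153.0 and 154.9, again not above background, and the Akti1/2 arrays read 1084.6 and 816.6. Relative to the mean negative control of the same array, the Akti1/2 arrays were 2.26 and 3.11 times higher at 2 h, 4.93 and 5.06 times at 6 h and 6.45 and 8.03 times at 12 h. The 8 control arrays were at 1.02 to 1.29 times. Col4a1 was above background on 8 of 16 arrays, the 6 of stimulated cells with Akti1/2 and the 2 of control cells at 2 h. In bulk RNA, more cells that express a gene and more RNA of it per cell cannot be told apart.

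**Figure D1:**
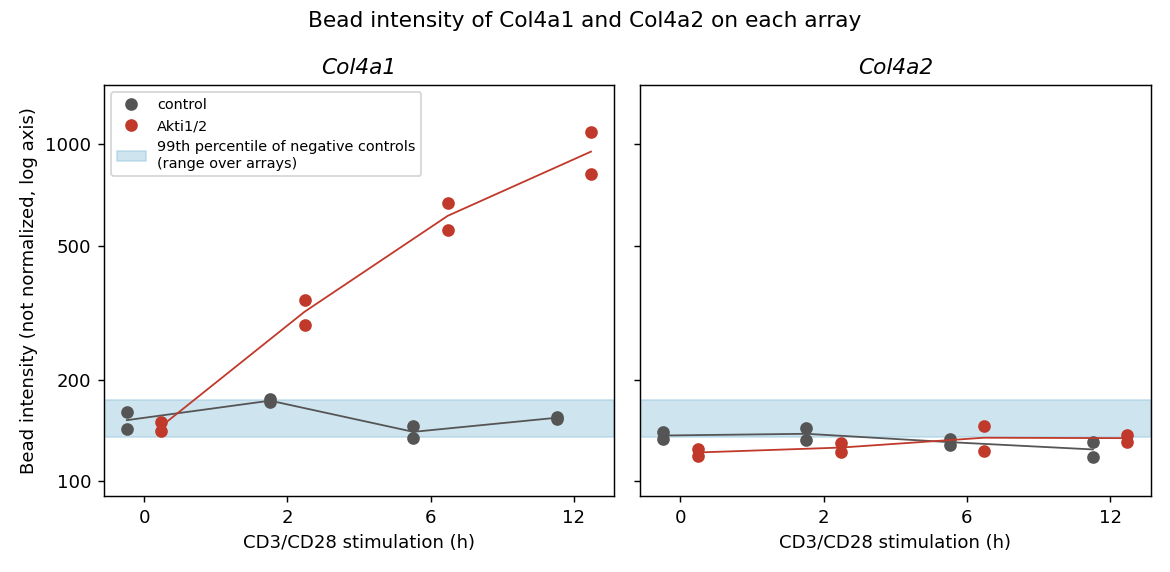
Bead intensity, not normalized and on a log axis, of Col4a1 (left) and Col4a2 (right) against the time of stimulation (time points evenly spaced). Each point is 1 array, lines join the means of 2 arrays, and the band is the range over arrays of the 99th percentile of the negative controls. Col4a1 with Akti1/2 climbs to 816.6 and 1084.6 at 12 h, while every Col4a2 point lies between 117.8 and 145.7.

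On the background-corrected and normalized log2 scale Col4a1 averaged 8.05 ± 0.14 (SD, n = 2) with Akti1/2 and 5.75 ± 0.09 in control cells at 2 h. The difference was 2.30 (SE 0.11, 95% interval 2.05 to 2.55), or 4.92-fold, with an adjusted p of 1.39e-07 in limma with Benjamini-Hochberg adjustment over 7395 genes. This ranked 7th of all differences upward at 2 h and 24th without background correction, and 28.4% of genes were called at 2 h and 13.6% were called higher. The difference itself rests on 4 arrays that took no part in the choice of the pair, though in a time course of the same experiment. Its SE, interval and adjusted p use the spread pooled over all 8 groups, which include the arrays that chose the pair. In a limma fit of the 2 h groups alone the SE was 0.139 and the adjusted p 0.00476. Within the chips the difference was 2.47 and 2.13. The size of the fold depends on how background was removed: without background correction it was 2.26-fold and with a larger offset 3.40-fold, and the difference was called under both.

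At 6 h Col4a1 averaged 8.94 ± 0.0014 with Akti1/2 against 4.73 ± 0.08 in control cells, and at 12 h 9.63 ± 0.10 against 5.14 ± 0.04. The measured differences were 4.21 and 4.48 on the log2 scale, the highest among the genes tested at both times. This rank rests on values of control arrays at background: without background correction Col4a1 was at 2.17 and 2.61 and ranked 9th and 8th, below Trib3 at 2.72 and 3.38. Since the control groups were not above background, the folds are limits: at least 9.57-fold at 6 h and at least 15.1-fold at 12 h, each set against the lowest level among genes above background on the control arrays. Without background correction these limits were 3.66-fold and 5.44-fold. Within the chips the differences were 4.15 and 4.26 at 6 h and 4.58 and 4.38 at 12 h. At 0 h, where the inhibitor had been present for the pre-incubation alone, the groups averaged 5.16 ± 0.14 and 5.11 ± 0.07, they overlapped, and neither was above background.

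**Figure D2:**
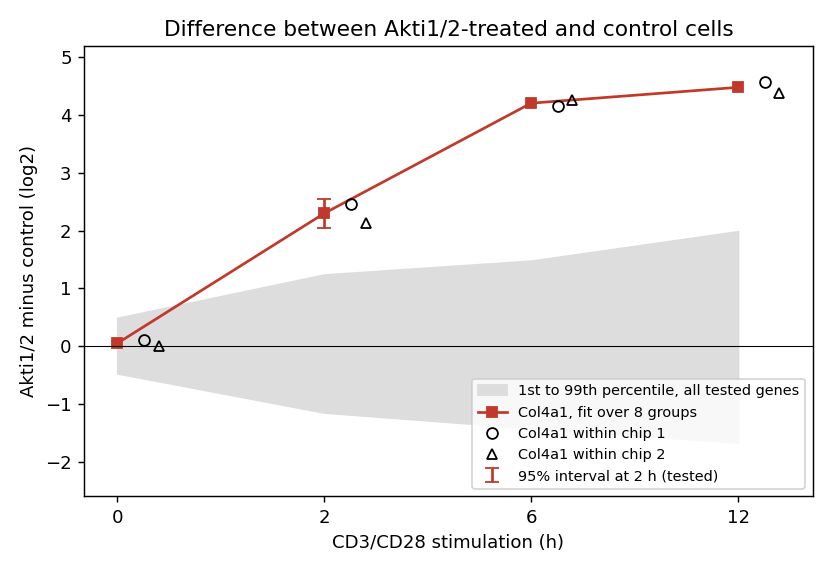
Difference of Col4a1 between cells with Akti1/2 and control cells (log2) against the time of stimulation (time points evenly spaced), from the fit over all 8 groups, with the difference within each chip as open symbols and the 95% interval at 2 h, the time that was tested. The grey band holds the 1st to 99th percentile of all 7395 genes tested. Col4a1 lies within the band at 0 h (0.05) and above it at 2, 6 and 12 h, where the band ends at 1.24, 1.48 and 1.99.

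Over time Col4a1 took separate courses in the 2 arms, each compared with its own 0 h arrays. In control cells it stood 0.64 above its 0 h value at 2 h on the log2 scale, at least 1.08-fold, and its arrays at 6 and 12 h were not above background, as at 0 h. With Akti1/2 it stood at least 5.26-fold above 0 h at 2 h, at least 9.77-fold at 6 h and at least 15.7-fold at 12 h. Without background correction these limits were 2.31-fold, 3.69-fold and 5.51-fold, and that of control cells at 2 h was 1.02-fold. The gain slowed with time: 1.86-fold from 2 to 6 h and 1.61-fold from 6 to 12 h, both between groups above background. Ordered by level, Akti1/2 at 12 h came first, then Akti1/2 at 6 h, Akti1/2 at 2 h and control at 2 h, with no overlap of arrays between neighbours. The remaining 4 groups were all below the background threshold and are not ordered here. Among them, control cells at 6 h stood at -0.38 against 0 h on the log2 scale, a difference between values at background.

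The choice of the pair used the difference between the arms in the change from 0 h, which for Col4a1 was 4.16 at 6 h and 4.43 at 12 h on the log2 scale. For Col4a1 the 0 h groups and the control groups at 6 and 12 h were not above background. The size and rank of these values therefore depend on how background was removed. The genes ranked just below Col4a1 at 6 h were Hbp1 (3.40), Trib3 (3.32) and Arl11 (2.68). At 12 h they were Trib3 (3.94), Pik3ip1 (3.79) and B230342M21Rik (3.52). At 2 h the same quantity for Col4a1 was 2.25, ranked 4th. Without background correction Col4a1 ranked 3rd at 6 h (2.16) and 4th at 12 h (2.60), and Trib3 ranked first at both (2.54 and 3.20). With an offset of 50 Col4a1 ranked first at 6 h (3.09) and second at 12 h (3.55), behind Trib3 (3.67).

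Col4a2, the partner gene, was not above background on any of the 16 arrays. Its intensities ran from 117.8 to 145.7 with a median of 130.4, and its detection p from 0.105 to 0.975. In control cells the lowest, median and highest values were 117.8, 132.85 and 143.4, and with Akti1/2 118.8, 126.85 and 145.7. In raw intensity the arms thus overlapped over nearly their whole range. At 12 h, where Col4a1 was highest, Col4a2 read 137.1 and 130.7 with Akti1/2 and 130.1 and 117.8 in control cells. At 6 h it read 122.9 and 145.7 with Akti1/2 and 133.2 and 127.4 in control cells. At 2 h the values were 121.4 and 129.7 with Akti1/2 against 143.4 and 132.5, and at 0 h 118.8 and 124.0 against 139.4 and 133.3. Since these raw intensities move with the background of each array and none was above it, they do not order the groups. Each array's value was 0.869 to 1.10 times its mean negative control. At 6 h these ratios were 1.09 and 1.10 with Akti1/2 against 0.966 and 0.969 in control cells. At 12 h they were 1.02 and 1.03 against 0.973 and 0.869. At 2 h they were 1.09 and 1.01 against 1.08 and 0.956, and at 0 h 0.936 and 0.986 against 1.01 and 1.05. The ratios were thus higher with Akti1/2 at 6 and 12 h and lower at 0 h, all below the background threshold.

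Col4a2 was therefore not tested and has no fold. With the filter on dim genes lifted it was called in 0 of 13 comparisons by limma, and 4 of these had an unadjusted p under 0.05, the lowest being 0.00967. A level of Col4a2 below the negative controls' spread is not detectable on these arrays, and the table has 1 entry for the gene, so other transcripts of it were not measured. Over the 16 arrays the normalized values of Col4a1 and Col4a2 correlated at r = 0.595, and after removal of the group means at -0.08. Both values come from the same arrays, and all those of Col4a2 lie at background, so they are given as a description.

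On the J5 score named in the study's methods, which scales the difference of mean intensities to the average absolute difference of all genes, Col4a1 scored 2.45, 5.73 and 6.96 for Akti1/2 over control cells at 2, 6 and 12 h. Against 0 h it scored 2.57, 5.73 and 7.48 with Akti1/2 and 0.389, -0.152 and -0.0199 in control cells. All lay under 20, the threshold stated in the study for the 2 h lists and applied here to every comparison, which 99 to 161 genes passed in each. The scores of Col4a2 lay between -0.209 and 0.344. The score works on untransformed intensities, so it weights bright genes, and the highest Col4a1 value was 1084.6.

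The other chains of type IV collagen, Col4a3 to Col4a6, form the networks of specialised basement membranes such as those of the kidney. All 4 were on the array and none was above background on any array, with highest intensities of 139.2, 141.9, 142.6 and 157.7. Of 32 other collagen genes, 29 were never above background and 2 were tested. Col18a1, a basement membrane collagen from which endostatin is cut, was lower with Akti1/2 at 12 h by limma (log2 -0.73, adjusted p = 3.37e-04), and Col15a1, its close relative, differed by -0.07 (adjusted p = 0.796).

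Outside the pair, the lists of matrix genes held 130 genes (collagens, collagen synthesis and secretion, collagen receptors, other basement membrane proteins, proteases and their inhibitors, and the TGF-beta pathway), of which 121 were on the array and 32 could be tested. At 12 h 14 of the 32 were called for Akti1/2 against control cells (43.8%), 4 higher (2 without replicate 2 of either 12 h group) and 10 lower, where 49% of all genes tested were called, 24.2% higher and 24.8% lower. At 2 h the counts were 1 higher and 9 lower (31.2%, against 28.4% of all genes, 13.6% higher and 14.9% lower), and at 6 h 2 higher and 9 lower (34.4%, against 37.5% of all genes, 18.8% higher and 18.7% lower), which became 7 calls, 1 of them higher, when replicate 2 of control cells at 6 h was left out. The difference in response was called for 6 of 32 at 6 h (18.8%, against 19.5%) and 11 of 32 at 12 h (34.4%, against 32.5%). The shares called were thus near those of all genes. More of the called members were lower than higher with Akti1/2, a split that was not tested. The lower calls at 12 h include Nid2, which was not above background at that time.

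**Figure D3:**
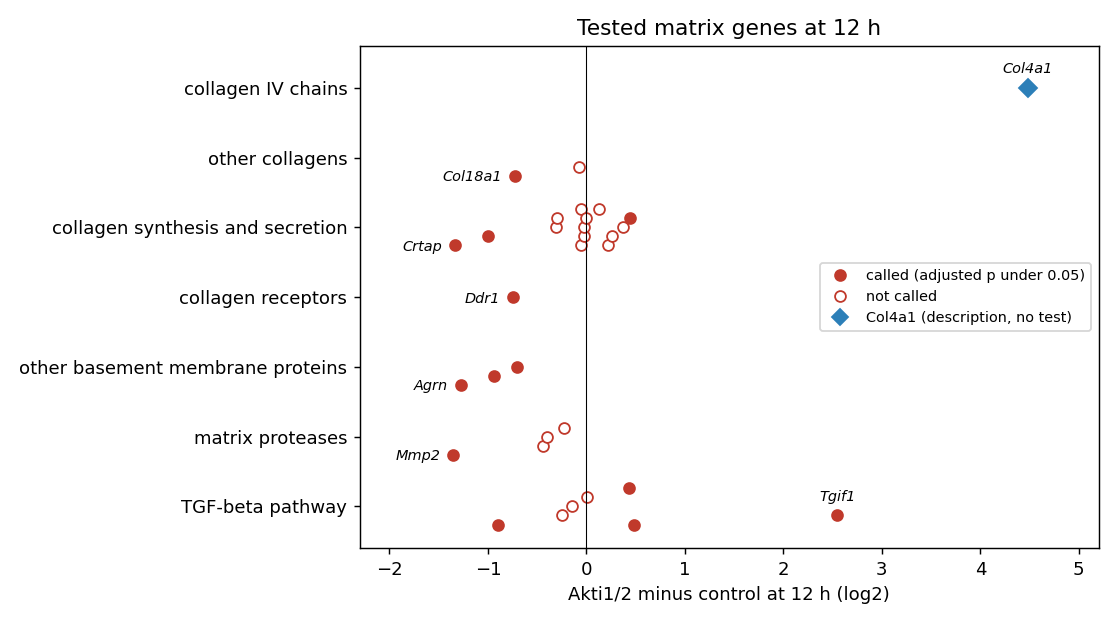
Difference between cells with Akti1/2 and control cells at 12 h (log2) for the tested genes of each matrix list, 1 point per gene, filled where limma called it. Nid2, below background on all 12 h arrays, is left out. Col4a1, shown without a test, stands at 4.48, and the next highest member is Tgif1 at 2.55.

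Of the genes that modify, fold and export procollagen 14 were tested. At 2 h 3 were called, all lower with Akti1/2, with a median difference of -0.252 over the 14, and 28.4% of all genes were called. At 12 h 1 was called higher and 2 lower, where 49% of all genes were called, and the median was -0.0217 against -0.0195 over all genes. Plod3, a lysyl hydroxylase, was among those lower at 2 h (log2 -0.76, limma adjusted p = 0.00183). At 12 h Crtap, a subunit of the prolyl 3-hydroxylation complex, had a log2 difference of -1.33 (limma adjusted p = 3.97e-06). Its intensities over all arrays ran from 550.7 to 1343.2. Plod2, another lysyl hydroxylase, had a difference of -0.997 at 12 h (adjusted p = 1.05e-04). Sec23a, a coat protein of the vesicles that carry procollagen out of the endoplasmic reticulum, was higher by 0.44 at 12 h (adjusted p = 0.0205). That call was lost without background correction and without replicate 2 of either 12 h group. P4hb, the protein disulfide isomerase subunit of prolyl 4-hydroxylase, was the brightest of those named (3586.8 to 9154.9). It differed by 0.22 at 12 h (adjusted p = 0.142). Serpinh1, the collagen chaperone of the endoplasmic reticulum, was never above background (111.2 to 145.0).

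Of 18 listed partners of type IV collagen in the basement membrane, 16 were on the array and 4 were tested. All 4 were called lower at 12 h, where 24.8% of all genes tested were, with a median difference of -0.849 against -0.0195 over all genes. This count includes Nid2, which was not above background on any of the 12 h arrays and has no fold. Agrn, the heparan sulfate proteoglycan agrin, had differences with Akti1/2 of -0.90 at 6 h and -1.27 at 12 h (limma adjusted p = 0.00323 and 1.80e-04), and the 6 h call was lost when the compared groups were fitted alone (adjusted p = 0.0543). The laminin chain gene Lamc1 had a difference of -0.94 at 12 h (adjusted p = 0.0041). The Lamc1 call was lost without replicate 1 of either 12 h group, with adjusted p values of up to 0.0574.

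Among the genes for proteins that bind or cut type IV collagen, Ddr1, a receptor tyrosine kinase for collagen, had differences of -0.76 at 6 h and -0.75 at 12 h (limma adjusted p = 0.00192 and 0.00131). Its intensities over all arrays ran from 152.6 to 246.9, where the 99th percentile of the negative controls ran from 134.7 to 174.2. Under other processing settings its differences were as small as -0.29 and -0.34, and both stayed called. It was the only 1 of 7 receptor genes on the array that was tested, and the integrin subunits Itga1, Itga11 and Itgb1 were not above background on any array. A signal at background on these arrays does not show that the cells lack the RNA. Mmp2, the gelatinase that cleaves type IV collagen, had log2 differences of -0.80 at 2 h (adjusted p = 8.86e-04) and -1.36 after 12 h, the latter with an adjusted p of 3.27e-06. Its intensities at 12 h were 234.7 and 221.7 with Akti1/2 and 356.1 and 449.3 in control cells, which did not overlap. None of Timp1 to Timp4, the inhibitors of these proteases, was above background.

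The TGF-beta pathway, a known inducer of matrix genes in other cells, had 7 tested members, of which 3 were called higher and 1 lower at 12 h, where 49% of all genes were called. The ligand gene Tgfb1 had differences of -0.84 at 6 h and -0.89 at 12 h (limma adjusted p = 8.25e-04 and 3.13e-04). The receptor gene Tgfbr1 went from -0.63 at 2 h to 0.49 at 12 h (adjusted p = 0.00158 and 0.00264), and Smad3, which carries the signal to the nucleus, from -0.58 to 0.43 (adjusted p = 0.0204 and 0.0464). Whether the calls of Tgfbr1 and Smad3 hold under other processing settings was not followed gene by gene. Tgif1, a repressor of Smad-driven transcription, was higher with Akti1/2 by 1.69, 1.94 and 2.55 at 2, 6 and 12 h (limma adjusted p = 4.19e-05, 4.35e-06 and 2.67e-07).

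Tgif1 was also among the 5 genes whose normalized values were most like those of Col4a1 over the 16 arrays. These were Trib3 (Pearson r = 0.977), Tgif1 (0.974), Eif4ebp1 (0.969), Slc6a9 (0.968) and Birc2 (0.967), and 118 of the 7394 other tested genes had r above 0.9. The arrays share the time course, so this is a description of shape over 8 groups. Trib3, a pseudokinase known to bind Akt, had differences of 3.45, 3.69 and 4.32 at 2, 6 and 12 h. Slc6a9, a glycine transporter, had 1.05, 2.29 and 2.43, and Eif4ebp1, a repressor of cap-dependent translation, 0.87, 1.68 and 1.52. Birc2, which encodes a ubiquitin ligase of the IAP family, had 0.48, 0.76 and 0.82. Unlike Col4a1, these 5 genes were above background on all 16 arrays.

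**Figure D4:**
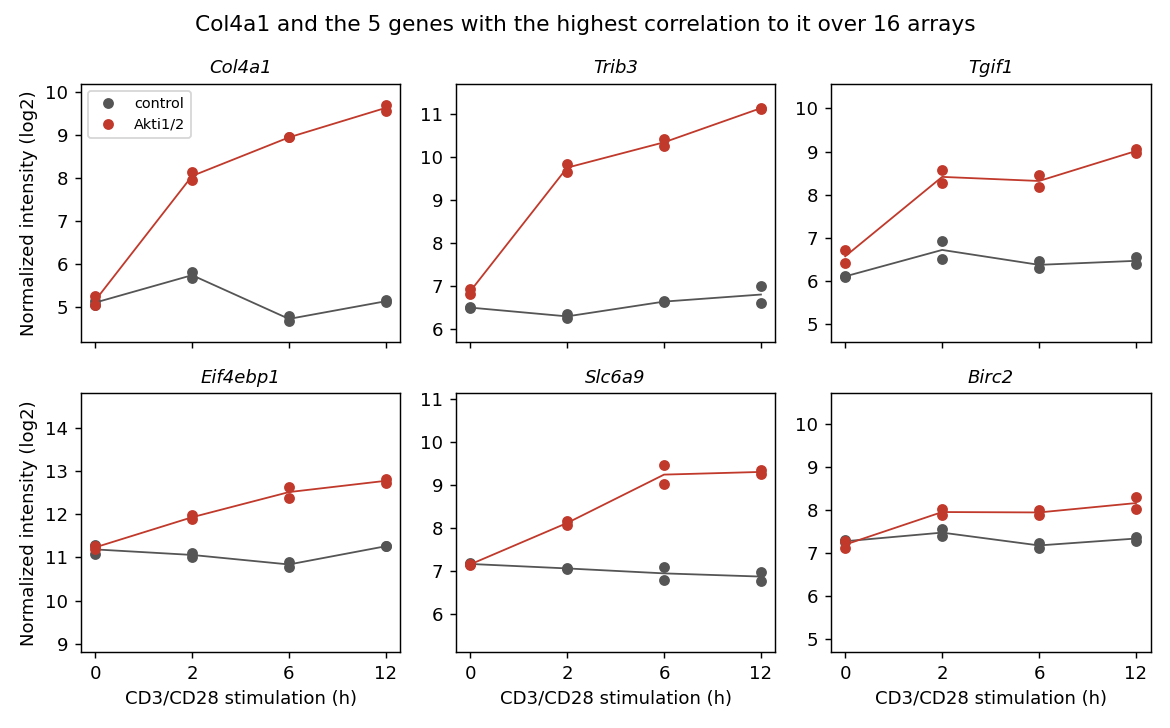
Normalized log2 intensity against the time of stimulation (time points evenly spaced) for Col4a1 and the 5 genes most like it over 16 arrays. Points are arrays, lines join group means, and every panel spans 6 log2 units. In all 6 panels the Akti1/2 arrays lie above the control arrays at 2, 6 and 12 h.

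For Col4a2 the most similar genes included Chfr (r = 0.844), Cyld (0.830), Catsper2 (0.823) and Slu7 (0.793). Since Col4a2 stayed at background, these values describe variation of the background signal as much as any gene.

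The genes next to the pair on chromosome 8, in the gene order of GRCm38.p6, were followed at the same times. Of the nearest 5 on each side 6 were in the table, all 6 passed the filter, and 1 was called at 12 h, where 49% of all genes were. This was Irs2, the neighbour on the Col4a1 side, which encodes an adaptor between insulin and IGF receptors and PI3K. Its intensities at 12 h were 1539.3 and 1338.4 with Akti1/2 and 390.6 and 395.6 in control cells. The difference was 0.25 at 2 h, 1.38 at 6 h and 2.31 at 12 h on the log2 scale (limma adjusted p = 0.316, 8.26e-05 and 8.15e-07).

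Irs2 was above background on all arrays, it fell by 1.52 on the log2 scale from 0 to 12 h in control cells (limma adjusted p = 5.44e-05), and it rose by 0.94 with Akti1/2 (adjusted p = 9.06e-04). At 2 h, when Col4a1 stood 2.30 above control cells, the difference of Irs2 did not pass the test. Further along on that side, Tnfsf13b, which encodes the B cell survival factor BAFF, stood at -0.58 after 2 h (adjusted p = 0.00709), and its 12 h difference of -0.28 had an adjusted p of 0.102. Lig4, a DNA ligase gene, was above background on 3 arrays and on none at 12 h.

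On the Col4a2 side, Rab20, a Rab GTPase gene and the immediate neighbour, was above background on 2 arrays and on none at 12 h. Naxd, a repair enzyme of hydrated NAD(P)H that the array lists under its older symbol Carkd, differed by 0.12 at 12 h (adjusted p = 0.490), and Ankrd10 by 0.01 (adjusted p = 0.974). Among the 4 neighbours above background on all arrays, Irs2 was the only one called at 12 h.

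**Figure D5:**
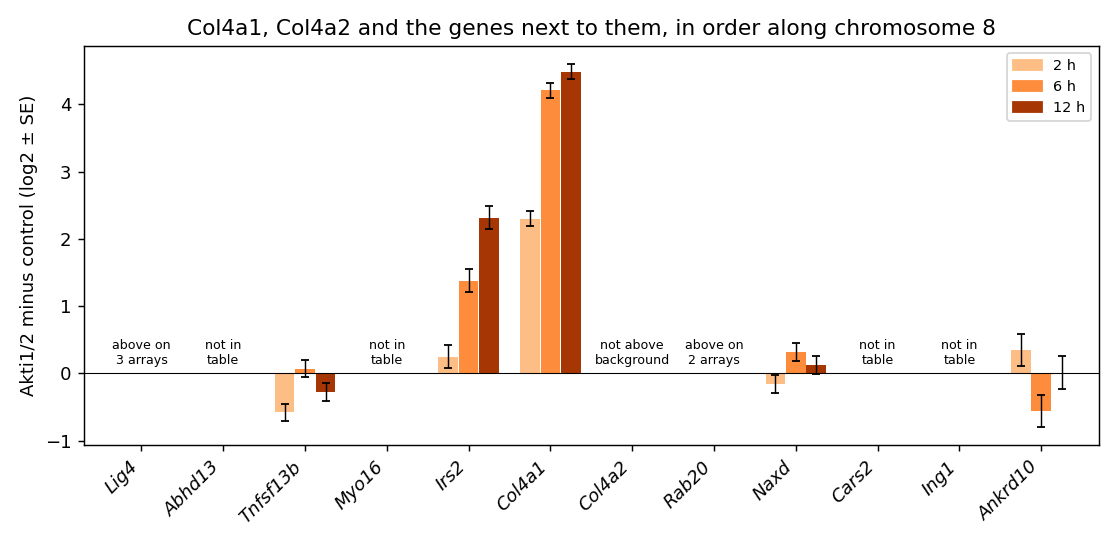
Difference between cells with Akti1/2 and control cells (log2, with SE) at 2, 6 and 12 h for Col4a1 and the genes beside the pair, in order along chromosome 8 and not to scale. Genes without bars were either not matched in the table or not above background on any 12 h array. Lig4 and Rab20 passed the filter and were fitted, but have no bars for the second reason. Col4a1 reaches 4.48 and Irs2 2.31 at 12 h, and the other bars lie between -0.58 and 0.34.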

How the data were processed

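RNA of 16 samples was hybridized to Illumina mouse RefSeq-8 bead arrays. The authors deposited 1 intensity per gene and array on a linear scale, exported from the scanner software without normalization or background subtraction, for 18138 genes beside 832 control entries (798 negative controls among them). The table gives no genome build, depth or bead counts, so precision is limited by the number of arrays. A second control table repeats control values and was not used here.

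The neqc function (background from the negative controls, offset 16, quantile normalization, log2) was run in limma 3.58.1 under R 4.3.3. A detection p below 0.01 on 2 or more arrays was required, and the 7395 genes that met it were fitted in 1 model of 8 groups (8 residual and 4.26 prior degrees of freedom), with the Benjamini-Hochberg method applied per comparison to all of them and calls at an adjusted p under 0.05. For limits on folds, the value of a dim array was raised to the lowest level among its genes above background where it lay below that. The members, gene lists and tests were chosen with earlier results of these data known, and Col4a1 was tested at 2 h alone, although its 0 h difference had also been planned as a test. The matrix genes named are, in each list, up to 4 called at 12 h in the difference in response with the largest differences, and further members with a stated role. The latter (P4hb, Serpinh1, Col15a1, Col18a1, Itga1, Itga11, Itgb1, the Timp genes, Tgfbr1 and Smad3) were named after their values were seen. Values of some genes that met these rules are not reported here. Similarity was Pearson r over 16 arrays (the 5 highest), and neighbours were the nearest 5 genes on each side.

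The J5 score used arrays scaled to a common 95th percentile, and a threshold of 20, which the study states for its 2 h lists against unstimulated cells, was applied to all comparisons. Gene names were matched to RefSeq by identifier for 16590 genes, and promoter windows came from RefSeq (GRCm38.p6). Figures were drawn with Python 3.11.15 and matplotlib 3.10.9. The steps were tested on simulated arrays. Alternatives were no background correction, mean scaling, an offset of 50, other filters, chip and replicate blocks, fits of the compared groups alone, J5 scalings and leaving out each array, with within-chip differences and J5 between the arms added after the data were seen. A group reduced to 1 array was taken to have the spread of the others. Deviations of arrays with the same replicate number correlated at -0.296 to 0.264 over 28 pairs of groups (median 0.0174), and 7 pairs exceeded 0.1. With 2 arrays a group and numbers that nearly follow the chips, this cannot show whether samples of the same number were paired. Replicates 1 and 2 of the 12 h controls sit on the reverse chips relative to the other groups.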

Additional observations from a re-analysis of the deposited data

Results flagged for a closer look

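For the genes of the matrix lists given here, and for Irs2 beside the pair, all called in the test of the difference itself, the change from 0 to 12 h differed between cells with Akti1/2 and control cells (limma, change with Akti1/2 minus change without, log2). Irs2 led with 2.46 (adjusted p = 2.88e-05), followed by Tgif1 with 2.08 (adjusted p = 5.64e-05) and Sec23a with 0.75 (adjusted p = 0.0126). The difference was negative for Mmp2 at -1.27 (adjusted p = 2.36e-04), Crtap at -1.24 (adjusted p = 2.78e-04) and Agrn at -1.14 (adjusted p = 0.0075). It was also negative for Lamc1 at -0.996 (adjusted p = 0.0305), Tgfb1 at -0.81 (adjusted p = 0.0104), Plod2 at -0.75 (adjusted p = 0.0125) and Ddr1 at -0.65 (adjusted p = 0.0347). All these genes were above background on all 16 arrays, unlike Col4a1. The arms share the 0 h arrays with the other times. The calls of Irs2, Tgif1, Mmp2, Crtap, Agrn and Tgfb1 held in all 25 alternatives, while that of Ddr1 was lost in 9, Lamc1 in 7, Plod2 in 2 and Sec23a in 1.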

How the results depend on the processing

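The size of the Col4a1 differences and their rank among all genes depended on the background correction and their direction did not. Without background correction the log2 difference between Akti1/2 and control cells was 1.18 at 2 h (limma adjusted p = 5.00e-08), 2.17 at 6 h and 2.61 at 12 h. Against 0 h, control cells then stood at 0.19 (2 h) and -0.13 (6 h) and Akti1/2 cells at 1.35, 2.03 and 2.61 (2, 6 and 12 h), and the difference in response was 1.16, 2.16 and 2.60. With an offset of 50 the difference was 1.77 at 2 h, 3.12 at 6 h and 3.57 at 12 h, the change from 0 h was 0.36 and -0.18 for control cells, for Akti1/2 cells 2.10, 2.91 and 3.56, and the difference in response 1.74, 3.09 and 3.55.

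Leaving out 1 array at a time gave Col4a1 differences of -0.0496 to 0.148 at 0 h, 2.20 to 2.40 at 2 h (adjusted p of at most 6.98e-06), 4.15 to 4.27 at 6 h and 4.41 to 4.55 at 12 h. The change from 0 h ranged over 2.79 to 2.99, 3.68 to 3.88 and 4.37 to 4.57 for Akti1/2 cells, and the difference in response over 2.15 to 2.35, 4.06 to 4.26 and 4.34 to 4.53. The calls among matrix genes ranged from 7 to 11 at 2 h, 7 to 13 at 6 h (7 when replicate 2 of control cells at 6 h was left out) and 11 to 16 at 12 h. With a replicate block the 2 h difference stayed at 2.30 (adjusted p = 3.20e-07), and with a chip block its adjusted p was 3.48e-07. Neither block changed the 2 h call of Col4a1 or a call that was followed through the alternatives, or moved a count of matrix calls by over 1.5 times. The calls of Pecam1, Plod3, Col18a1, Tgfbr1 and Smad3, and those of Mmp2 and Tnfsf13b at 2 h, were not followed in this way. The fit of the compared groups alone gave an adjusted p of 0.00476 at 2 h. A filter for genes above background on all arrays leaves Col4a1 out. The uncalled 12 h difference of Ankrd10 ranged from -0.0271 to 0.0497 with 1 array left out, and it was negative without replicate 1 of the control cells or of the Akti1/2 cells. Signals at the level of the negative controls, which include all of Col4a2 and most of Col4a1 in control cells, cannot be ordered on these arrays.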
